A study of Mus musculus with 6 samples.

Results

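Cytoskeletal genes of newly born neurons, 10 of the 15063 genes named singly on the array, were followed in the cerebral cortex of mouse embryos that lack the active copy of Mest. The genes were taken by symbol from the array platform's annotation. They are the stathmins Stmn1, Stmn2 and Stmn3, the microtubule-associated protein genes Map2, Map1b, Mapt and Dcx, the growth cone gene Gap43, and the neurofilament genes Nefl and Nefm. Each had 1 probe, so that 10 probes of 21766 carry the values below. All 10 could be tested, which required values on 4 or more arrays with 2 or more in each dye orientation.

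The arrays set RNA of 6 single mutant cortices at stage E12.5 against RNA of single wild-type cortices, on 6 two-colour arrays. The mutants inherited from their fathers a LacZ-targeted allele of Mest (also called Peg1) without exons 3 to 8, and their mothers were wild type, since the paternal copy of this imprinted gene is the one expressed. The deletion is in every cell that carries the allele, not in neurons alone. The mutant RNA was in the Cy5 channel for mutants 3, 5 and 6 and in the Cy3 channel for mutants 1, 4 and 7. Each of 3 wild-type cortices served on 2 arrays, once per dye: wild type 2 with mutants 3 and 1, wild type 8 with mutants 5 and 4, and wild type 9 with mutants 6 and 7. The wild type set against mutant 3 is labelled with another number, 1, and was read as wild type 2, because the design text names wild types 2, 8 and 9. Values below are mutant over wild type on the log2 scale, relative to the median probe of the same array, so a positive value means more transcript in the mutant cortex. They give no level, and whether the tissue holds young neurons could not be read from them. In whole cortices, fewer cells of a type and less RNA per cell cannot be told apart.

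When a cortical progenitor divides for the last time, its daughter stops cycling, migrates towards the outer surface and grows an axon and dendrites. This needs a new cytoskeleton. Stathmins bind free tubulin and favour the shortening of microtubules, the microtubule-associated proteins bind along the polymer and stabilise it, doublecortin (Dcx) does so in migrating neurons, GAP-43 acts at the membrane of the growth cone, and neurofilaments fill the axon as it widens. At mid-gestation the mouse cortex holds mostly dividing progenitors under a thin layer of first neurons, so transcripts of this kind are a usual measure of how much neuronal differentiation has taken place.

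The 250 bases before the start of 4 of the 10 genes were found in RefSeq (build GRCm38.p6). These 4 are shown because the others had no window there, not for their values. Of the members, Map2 had the narrowest spread over arrays. Stmn3 had the single value with the widest gap to its neighbour relative to the gene's range. Map1b and Dcx had the same sign as each other on 5 of 6 arrays, but so did Gap43 and Dcx. Stmn2 and Dcx shared their sign on every array where both had a value. Each runs 5′ to 3′ towards the start, with capitals for CANNTG, the E-box bound by proneural factors of the basic helix-loop-helix class. This motif reads the same on both strands.
Map2 (chr1:66175079-66175328, plus strand): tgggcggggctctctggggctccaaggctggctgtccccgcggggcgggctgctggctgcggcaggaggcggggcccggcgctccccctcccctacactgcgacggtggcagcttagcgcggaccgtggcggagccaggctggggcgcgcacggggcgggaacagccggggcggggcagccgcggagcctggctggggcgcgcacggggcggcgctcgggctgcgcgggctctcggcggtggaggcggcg
Stmn3 (chr2:181314501-181314750, minus strand): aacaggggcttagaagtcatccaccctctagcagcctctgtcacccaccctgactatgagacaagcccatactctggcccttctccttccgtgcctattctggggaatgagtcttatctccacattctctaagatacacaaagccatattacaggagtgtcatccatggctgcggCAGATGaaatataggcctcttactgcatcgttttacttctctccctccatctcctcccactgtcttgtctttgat
Map1b (chr13:99516603-99516852, minus strand): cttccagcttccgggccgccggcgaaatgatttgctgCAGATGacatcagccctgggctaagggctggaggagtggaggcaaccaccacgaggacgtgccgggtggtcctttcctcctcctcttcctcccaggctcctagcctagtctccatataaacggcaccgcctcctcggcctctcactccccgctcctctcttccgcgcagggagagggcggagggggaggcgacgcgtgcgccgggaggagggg
Dcx (chrX:143933220-143933469, minus strand): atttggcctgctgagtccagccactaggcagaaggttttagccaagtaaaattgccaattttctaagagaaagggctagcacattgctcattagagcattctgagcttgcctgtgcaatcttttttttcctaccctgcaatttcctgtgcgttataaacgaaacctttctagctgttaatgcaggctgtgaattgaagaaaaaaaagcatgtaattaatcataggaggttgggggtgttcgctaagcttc
Stmn3 and Map1b each hold 1 such word, CAGATG in both, which begins 75 bases before the start of Stmn3 and 213 bases before that of Map1b. The Map2 and Dcx windows hold none. Of all 32851 windows of this length in the table, 66.2% hold at least 1. For Dcx the table gives a further, overlapping window, which holds none either.

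No member differed between mutant and wild-type cortex past an adjusted p of 0.05 (limma, Benjamini-Hochberg over 17476 probes), and the background was 0% of all probes. The adjusted p of the 10 genes lay between 0.90 and 0.99. At an unadjusted p under 0.05 there were 0 of 10 members, where 3.93% of all probes lay there. Fitted ratios of the members ran from -0.30 for Stmn1 to 0.26 for Mapt, with 3 above and 7 below 0 and a median of -0.069. Over all tested probes the median was 0.0069 and 48.7% lay below 0. Without mutant 7 the members split 5 above and 5 below 0 with a median of 0.030, and without both arrays of wild type 9 they split 6 above and 4 below with a median of 0.12. The size of a member's ratio had a median of 0.139, against 0.138 over all probes. The targeted gene Mest lay at -1.59 (standard error 0.13), with all 6 arrays below 0 and an adjusted p of 0.60 (limma). The direction of the deposited ratios was read from this gene.

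**Figure D1:**
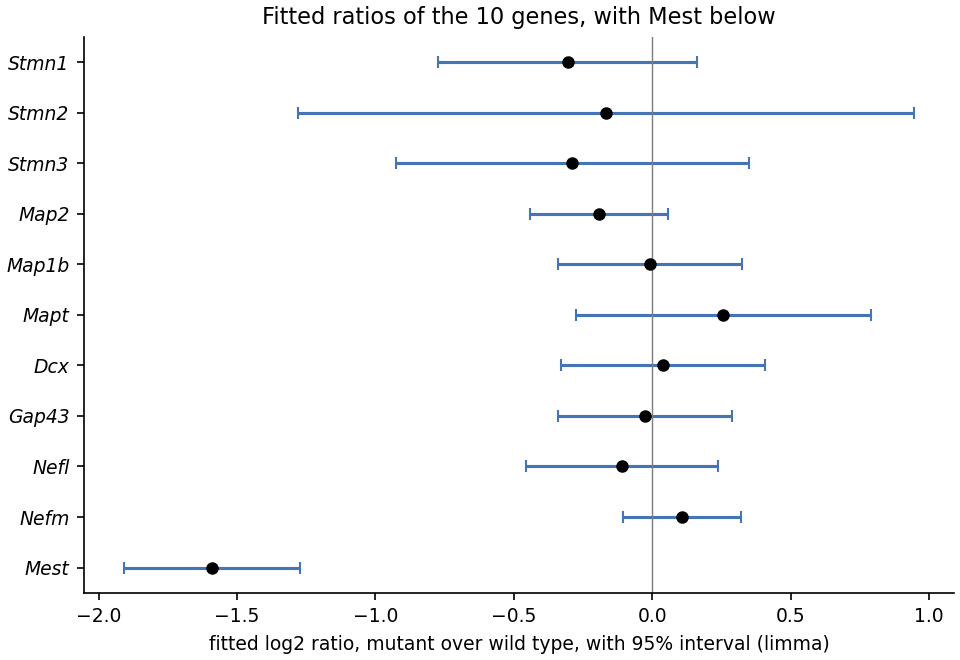
Fitted log2 ratio of mutant over wild-type cortex (horizontal axis) for the 10 cytoskeletal genes and, in the bottom row, Mest. Points are limma estimates over 6 arrays (5 for Stmn2 and Nefl) and bars are 95% confidence intervals. All 10 intervals include 0, and that of Stmn2 is the widest, from -1.28 to 0.95, while Mest lies at -1.59.

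The 95% intervals, which are not adjusted for the number of probes, show how precisely each ratio was estimated. For 9 of the 10 genes the whole interval lay between -1 and 1 on the log2 scale, against 70.9% of all tested probes. Stmn2 was the exception, with an interval from -1.28 to 0.95. Nefm had the smallest standard error, 0.085, and an interval from -0.11 to 0.32, which is a ratio between 0.929 and 1.25. Map2 followed with an interval from -0.44 to 0.058, a ratio between 0.737 and 1.04. Ratios inside an interval are those compatible with the 6 arrays. The intervals do not give the smallest difference that could pass the adjusted threshold, which Mest at -1.59 did not pass.

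The stathmins had the largest SDs over arrays of the members, with Stmn1 (0.45) just above Mapt (0.43). This spread holds dye and the shared wild types as well as the mutant embryos. Stmn1, the stathmin of dividing cells and young neurons (probe CG_Mm_3004122_1), had log2 ratios of -0.85, -0.53 and -0.31 in mutants 3, 5 and 6 and of 0.18, 0.28 and -0.61 in mutants 1, 4 and 7. It was lower in 4 of 6 mutants, and the 2 positive values both came from arrays with the mutant in Cy3. The fitted ratio was -0.30 with a standard error of 0.19 (adjusted p = 0.90 in limma, below 0 on 4 of 6 arrays), a mean of -0.30 ± 0.45 (SD, n = 6). Leaving out 1 mutant gave ratios between -0.44 without mutant 6 and -0.14 without mutant 7.

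Stmn2, also known as SCG10 and found in growing axons (probe CG_Mm_EXT_3108408_1), had 0.098, 1.25 and -0.39 in mutants 3, 5 and 6 and 0.13 and -1.67 in mutants 1 and 7, with no value for mutant 4. Mutant 5 lay far above and mutant 7 far below the others. The fitted ratio of -0.17 had a standard error of 0.41, the widest of the 10 genes (adjusted p = 0.95 in limma, below 0 on 2 of 5 arrays). Without mutant 7 it was 0.28, and without both arrays of wild type 9 it was 0.47 on 3 arrays, with adjusted p = 0.9995 and 0.87 (limma).

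Stmn3, or SCLIP, a stathmin of the nervous system (probe CG_Mm_3006576_1), had -0.15, 0.41 and 0.12 in mutants 3, 5 and 6 and -0.32, -0.15 and -1.63 in mutants 1, 4 and 7. It shared with Stmn2 its highest value in mutant 5 and its lowest in mutant 7. Its fitted ratio was -0.29 with a standard error of 0.25 (adjusted p = 0.90 in limma, below 0 on 4 of 6 arrays). Without mutant 7 the ratio was -0.056, without mutant 3 it was -0.19, and without mutant 4 it was -0.42. The fourth stathmin gene, Stmn4, which was listed among related genes, lay at -0.16 with 5 of 6 arrays below 0.

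**Figure D2:**
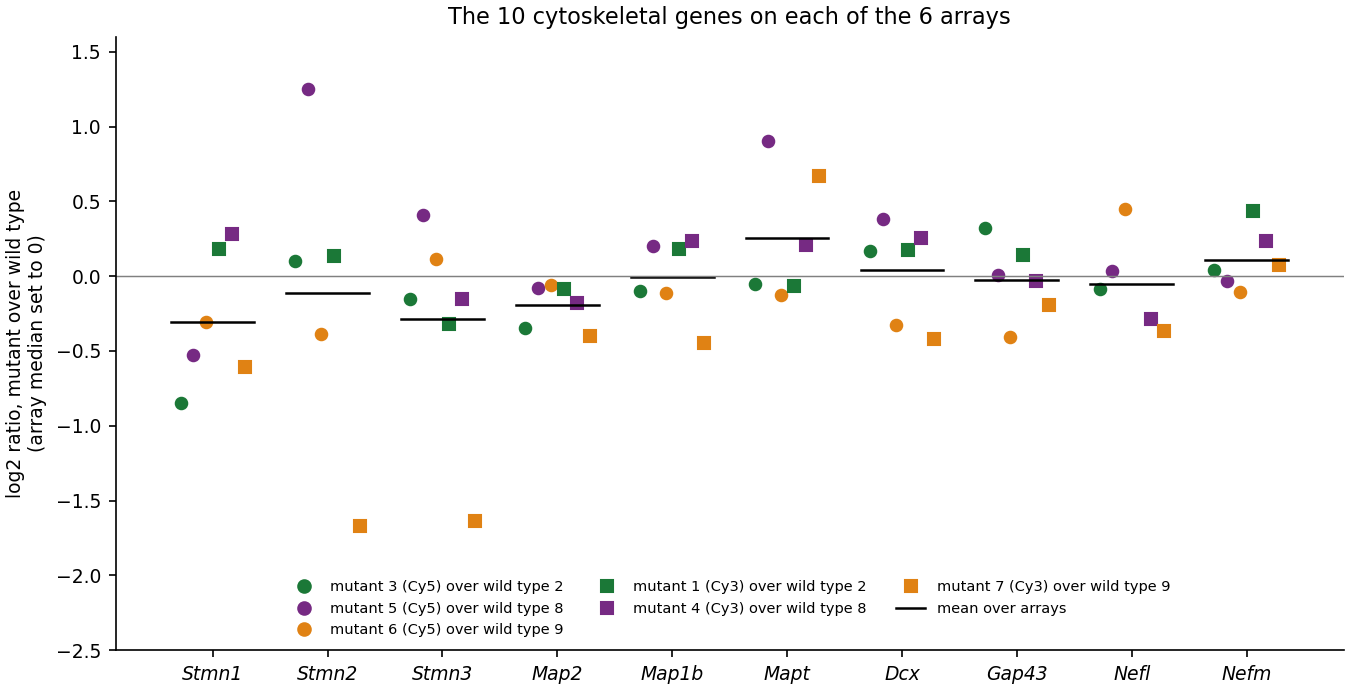
Log2 ratio of mutant over wild type (vertical axis) of each of the 10 genes on each array. Circles are arrays with the mutant in Cy5 and squares those with the mutant in Cy3, colours mark the wild-type cortex, and black bars are means over arrays. Stmn2 and Stmn3 reach -1.67 and -1.63 in mutant 7, whereas Map2 stays between -0.40 and -0.057 in all 6 mutants.

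Map2, whose protein stabilises microtubules in dendrites (probe CG_Mm_3004334_1), was the 1 member on the same side of 0 in every mutant after median centring. It had -0.35, -0.077 and -0.057 in mutants 3, 5 and 6 and -0.084, -0.18 and -0.40 in mutants 1, 4 and 7. All were negative, with the wild types 2, 8 and 9 giving means of -0.22, -0.13 and -0.23. Of all tested probes 3.12% lay below 0 on every array with a value, and 973 of 17476 lay on 1 side of 0, above or below. The shared sign of Map2, and the permutation test below, rested on the median centring. Before it, mutant 3 stood at -0.09 and mutant 5 at 0.69. The fitted ratio was 0.061 without centring and 0.069 with centring on Gapdh control spots. The fitted ratio of -0.19 (standard error 0.099) did not pass (adjusted p = 0.90 in limma, below 0 on 6 of 6 arrays). Flipping the signs of the 6 array values in an exact permutation test gave p = 0.0313 (two-sided), the smallest possible with 6 arrays, and 0.25 after Benjamini-Hochberg adjustment over the 8 members with 6 values. Because pairs of arrays share a wild type, 3 independent units could not go below 0.25.

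Map1b, the microtubule-associated protein gene of early axon growth (probe CG_Mm_3004319_1), had -0.10, 0.20 and -0.12 in mutants 3, 5 and 6 and 0.18, 0.23 and -0.44 in mutants 1, 4 and 7. Both arrays of wild type 8 lay above 0, both of wild type 9 below, and those of wild type 2 on either side. The fitted ratio was -0.0074 with a standard error of 0.13 (limma, adjusted p = 0.99, lower on 3 of 6 arrays).

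Dcx, the X-linked gene of doublecortin (probe CG_Mm_3006541_1), had 0.17, 0.38 and -0.32 in mutants 3, 5 and 6 and 0.18, 0.25 and -0.42 in mutants 1, 4 and 7. The 4 arrays of wild types 2 and 8 all lay above 0 and both arrays of wild type 9 below it. Its fitted ratio was 0.039 with a standard error of 0.15 (limma, adjusted p = 0.96, higher on 4 of 6 arrays), and it turned to -0.022 without mutant 4 and -0.037 without mutant 5.

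Mapt, which encodes tau, the microtubule-associated protein of axons (probe CG_Mm_EXT_3103844_1), had the highest fitted ratio of the members, 0.26 with a standard error of 0.21 (limma, adjusted p = 0.90, higher on 3 of 6 arrays). It had -0.052, 0.91 and -0.12 in mutants 3, 5 and 6 and -0.064, 0.21 and 0.67 in mutants 1, 4 and 7. Mutants 5 and 7 stood above the rest, and mutant 7 was the one in which both Stmn2 and Stmn3 were lowest. Without mutant 5 the ratio was 0.091, without mutant 7 it was 0.12 and without mutant 6 it was 0.40.

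Gap43 (probe CG_Mm_3000128_1) had 0.32, 0.0045 and -0.41 in mutants 3, 5 and 6 and 0.14, -0.032 and -0.19 in mutants 1, 4 and 7. Both arrays of wild type 2 lay above 0, both of wild type 9 below it, and those of wild type 8 next to 0. The fitted ratio was -0.027 with a standard error of 0.12 (adjusted p = 0.97 in limma, below 0 on 3 of 6 arrays).

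The neurofilament genes Nefl and Nefm are neighbouring coding genes in the reference gene table and encode the light and medium subunits of one filament, but their fitted ratios had opposite signs. Nefl (probe CG_Mm_3004077_1) had -0.085, 0.036 and 0.45 in mutants 3, 5 and 6 and -0.28 and -0.37 in mutants 4 and 7, with no value for mutant 1. Nefm (probe CG_Mm_3004078_1) had 0.041, -0.032 and -0.11 in mutants 3, 5 and 6 and 0.44, 0.24 and 0.072 in mutants 1, 4 and 7. For Nefl every array with the mutant in Cy5 lay above every array with it in Cy3, and for Nefm every one lay below. The fitted ratios were -0.11 (standard error 0.13, lower on 3 of 5 arrays) for Nefl and 0.11 (standard error 0.085, higher on 4 of 6 arrays) for Nefm, each with an adjusted p of 0.90 in limma. Leaving out 1 mutant, Nefl lay between -0.19 without mutant 6 and -0.042 without mutant 3, and Nefm between 0.068 without mutant 1 and 0.14 without mutant 7.

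Dye orientation was a term of the fit, and no member passed on it either. The adjusted p of the dye term lay between 0.29 for Nefl and 0.9996 for Gap43 (limma), and 0 of 10 members had an unadjusted p under 0.05, where 20% of all probes did and 0.269% passed after adjustment. Values of the 2 orientations did not overlap for 2 of 10 members, Nefl and Nefm, against 29.8% of all probes. Stmn3 missed this by little, with -0.152 in mutant 3 (Cy5) and -0.151 in mutant 4 (Cy3). The size of the dye coefficient had a median of 0.088 over the members, against 0.17 over all probes. The largest was that of Stmn2, 0.49 with a standard error of 0.34, whose mean was 0.32 with the mutant in Cy5 and -0.77 with it in Cy3. Stmn1 differed the other way, with a mean of -0.56 in Cy5 and -0.049 in Cy3.

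Averaged over the pair of arrays that share a wild type, which holds both dye orientations, the members lay lowest against wild type 9. Their median was 0.039 against wild type 2, 0.10 against wild type 8 and -0.29 against wild type 9, where medians over all probes were 0.012, 0.020 and -0.014. Against wild type 9, 8 of 10 members had a mean below 0, where 52.3% of all probes did. The exceptions were Mapt (0.27) and Nefl (0.041). Stmn2 and Stmn3 were the lowest, with -1.03 and -0.76. Both arrays of wild type 9 were below 0 for 6 of 10 members (Stmn1, Stmn2, Map2, Map1b, Dcx and Gap43), against 23.1% of all probes. For wild type 2 this held for 3 of 9 members with both values, against 24.5% of probes, and for wild type 8 for 1 of 9, against 24.8%. These counts were chosen after the values were seen and carry no test. A low ratio on both arrays can come from the wild-type cortex they share as well as from both mutants, and these cannot be told apart.

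**Figure D3:**
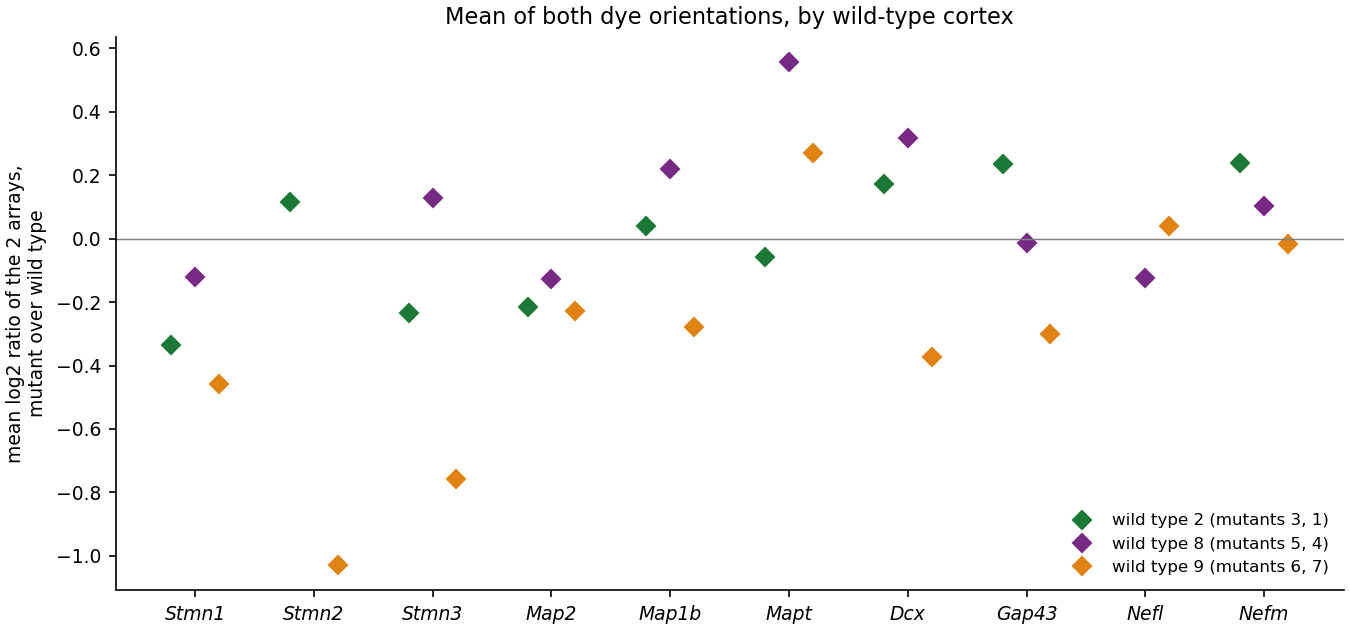
Mean log2 ratio of mutant over wild type over the 2 arrays that share a wild-type cortex (vertical axis) for each gene, one diamond per wild type. No diamond is drawn where 1 of the 2 arrays has no value (Stmn2 with wild type 8, Nefl with wild type 2). Wild type 9 gives the lowest mean for 8 genes, down to -1.03 for Stmn2, while Mapt and Nefl lie above 0 against it. The share of all probes with their lowest mean against wild type 9 was not counted.

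By array, the members were lowest in mutant 7. Its 10 members had a median of -0.41 and a range from -1.67 to 0.67, with 8 below 0, and 8 of the 10 lay outside the quartiles of that array's probes (-0.34 and 0.34). Mutant 6, on the other array of wild type 9, had a median of -0.12 with 8 of 10 below 0. Mutants 3, 5, 1 and 4 had medians of -0.069, 0.12, 0.14 and 0.21. The mean over members was -0.053 ± 0.26 (SD, n = 6 arrays). Xist, the transcript of the inactive X chromosome in females, was looked at after these values were seen, because Dcx is X-linked and the embryos were single. It had 3.18, -0.36 and 1.21 in mutants 3, 5 and 6 and 0.41, -2.38 and 2.09 in mutants 1, 4 and 7. It was positive on both arrays of wild type 9 and both of wild type 2, and negative on both arrays of wild type 8. Its part in the members' values was not tested.

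The members differed in their spread over arrays. Map2 had an SD of 0.15, smaller than that of all but 10.2% of tested probes, and Nefm had 0.20. Gap43 and Map1b had 0.26 each, Nefl 0.32 and Dcx 0.33. Mapt and Stmn1 followed with 0.43 and 0.45. Stmn3 had 0.71 and Stmn2 1.06, and 78.7% of probes had a smaller SD than Stmn2. The median over members was 0.326, against 0.409 over all probes, and 6 of the 10 lay below the latter value.

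Other genes of the neuronal cytoskeleton gave no call either. Of 32 listed genes of microtubules, intermediate filaments and the growth cone 28 were tested with 1 value per gene, and 11 lay above and 17 below 0, with a median of -0.021. Without centring, and with centring on Gapdh spots, 26 lay above and 2 below, where the median of all genes was 0.25 and 0.26. Of all 12588 genes 10747 and 10748 lay above 0 in these 2 settings. None of these or of the genes below passed the adjusted threshold in limma, against 0% of all 12588 genes tested. At an unadjusted p under 0.05, 2.42% of all genes were lower and 1.54% higher, and 0 of the 28 were in either direction. The 4 with the smallest p were Map6, Dpysl2, Stmn4 and Map1lc3a. Map6, whose protein makes microtubules resistant to cold, had -0.31 with 5 of 6 arrays below 0. Dpysl2, or CRMP2, which carries tubulin in growing axons, had 0.16. Map1lc3a had 0.26 on 4 arrays, of which the 2 with the mutant in Cy5 gave 2.21 and 1.67 and the 2 in Cy3 gave -1.45 and -1.34.

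Of 12 tubulin genes 11 were tested, 9 of them below 0, with a median of -0.18. Tuba1c, Tuba1b, Tubb4a and Tuba1a lay at -0.26, -0.25, -0.18 and -0.28, and Tuba1c alone had an unadjusted p under 0.05 (0.044, limma adjusted p = 0.90, lower on 6 of 6 arrays). Coding sequences of tubulin genes are much alike, so a probe may read several of them. Without centring 8 of the tubulins lay above and 3 below 0 (median 0.072), where 10747 of all 12588 genes lay above. After centring on Gapdh spots 9 lay above and 2 below (median 0.080), where 10748 of all genes lay above. Of 13 listed kinases that phosphorylate these proteins, 10 were tested, 8 above and 2 below 0. Mark4, a kinase of tau and MAP2, lay at -0.85 with an unadjusted p under 0.05 (0.014, limma adjusted p = 0.90, below 0 on 4 of 4 arrays), and no other of the 10 kinases lay under that threshold. Gsk3b lay at 0.16, Cdk5r1 at 0.088 and Cdk5 at 0.19.

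**Figure D4:**
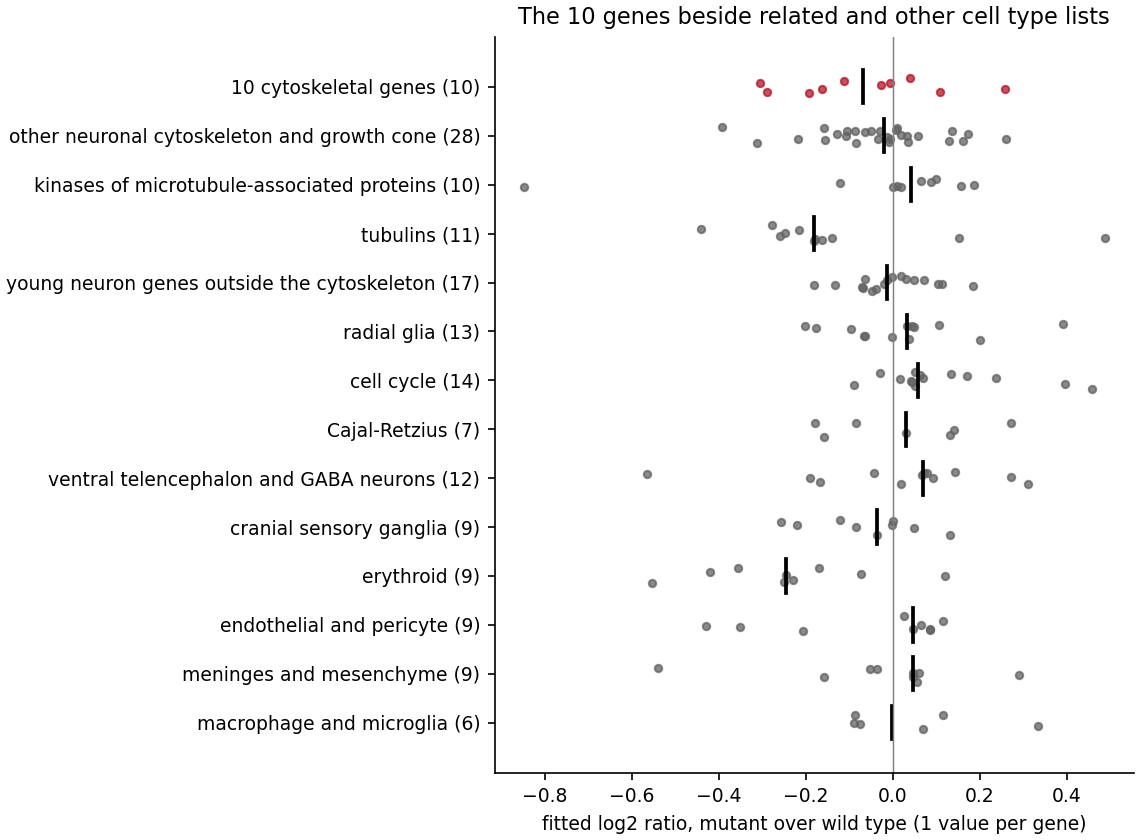
Fitted log2 ratio of mutant over wild type (horizontal axis, 1 value per gene) for the 10 cytoskeletal genes and for the other lists, with the number of tested genes in brackets. Each dot is a gene, spread vertically for visibility, and the black bar is the list's median. The 10 genes have a median of -0.069, tubulins -0.18 and erythroid genes -0.24, and no gene shown passed the adjusted threshold.

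Markers of young neurons outside the cytoskeleton lay near 0. Of 20 genes 17 were tested, 7 above and 10 below 0, with a median of -0.013, and Tbr1, Neurod2, Sox11 and L1cam lay at -0.13, 0.19, -0.064 and -0.068. Radial glia genes (13 tested, 7 above and 6 below 0) had a median of 0.032, with Msi1, Hey1, Slc1a3 and Fabp7 at 0.20, -0.18, 0.39 and -0.20. Of 14 cell cycle genes tested 12 lay above and 2 below 0, with a median of 0.058 and with Tyms, Rrm2, Mcm5 and Plk1 at 0.46, 0.24, 0.17 and 0.13. None of these 44 genes had an unadjusted p under 0.05. Their splits rested on the centring. Without it, and with centring on Gapdh spots, all 17 young neuron, all 13 radial glia and all 14 cell cycle genes lay above 0. So did 10747 and 10748 of all 12588 genes in these 2 settings.

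In mutant 7 the members averaged -0.50 (median -0.412), and all tested genes averaged -0.057. Young neuron genes outside the cytoskeleton averaged -0.24 there (median -0.289), other genes of the neuronal cytoskeleton -0.21 (median -0.24) and tubulins -0.28 (median -0.369). Erythroid genes averaged -0.24 there (median -0.448), but their mean was below 0 on every array, from -0.55 to -0.088. Endothelial and pericyte genes averaged -0.21 with a median of 0.048. Their mean was also low in mutants 1 and 4 (-0.29 and -0.19), which like mutant 7 were in Cy3. It lay between 0.0097 and 0.20 in mutants 3, 5 and 6, which were in Cy5. Cajal-Retzius genes averaged -0.44 and genes of the ventral telencephalon and its GABA neurons -0.46, but their medians were -0.145 and -0.004. The lowest genes there were Lhx5, Lhx1 and Ebf3 in the first list and Gsx2, Nkx2-1 and Dlx1 in the second, named after their values were seen. Cranial ganglion genes averaged -0.21 (median -0.118), whereas the means of radial glia, cell cycle, kinase, meningeal and macrophage genes lay between 0.0073 and 0.060. In mutant 5 the members averaged 0.26 (median 0.1195) and young neuron genes 0.28 (median 0.2375). There macrophage genes had the highest mean, 0.56 (median 0.0285), cell cycle genes averaged 0.32 (median 0.15), and Cajal-Retzius genes averaged 0.16 with a median of -0.0975. Means of the ventral genes also divided by dye. They were 0.15, 0.24 and 0.32 in mutants 3, 5 and 6 (Cy5) and -0.11, -0.15 and -0.46 in mutants 1, 4 and 7 (Cy3). The part of dye in the list means was not tested, nor was that of these cell types in the members' values.

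**Figure D5:**
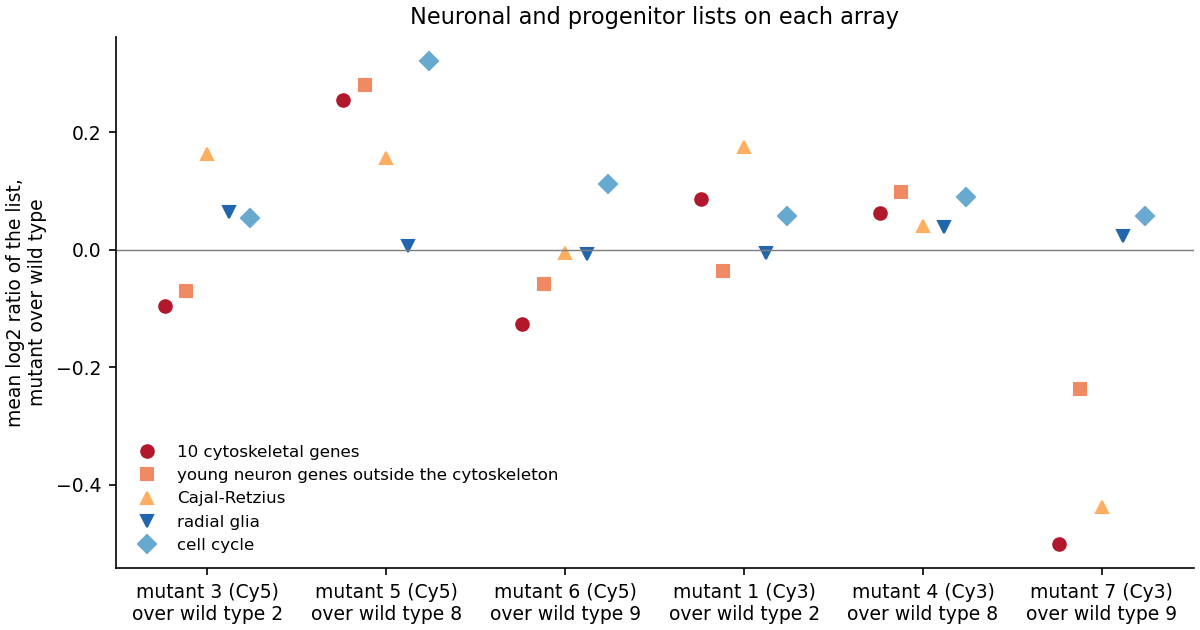
Mean log2 ratio of mutant over wild type (vertical axis) of 5 gene lists on each of the 6 arrays (horizontal axis). In mutant 7 the 10 cytoskeletal genes average -0.50, young neuron genes -0.24 and Cajal-Retzius genes -0.44 (median -0.145), while radial glia genes average 0.023. Array means of radial glia genes stay between -0.0074 and 0.065.

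Markers of other cells that a dissected cortex can hold were also set beside the members. Array means ranged from -0.44 to 0.18 for Cajal-Retzius genes (7 of 7 tested), from -0.46 to 0.32 for ventral genes (12 of 13) and from -0.21 to 0.027 for cranial sensory ganglia (9 of 11), which are rich in neurofilament. They ranged from -0.55 to -0.088 for erythroid genes (9 of 11), from -0.29 to 0.20 for endothelial and pericyte genes (9 of 10), from -0.36 to 0.25 for meningeal genes (9 of 10) and from -0.17 to 0.56 for macrophage genes (6 of 8). The members' own array means ranged from -0.50 to 0.26. Of the erythroid genes 8 of 9 lay below 0, with a median of -0.24, and Hbb-bh1, Hbb-y and Alas2 had unadjusted p under 0.05 (0.014, 0.032 and 0.040, limma adjusted p = 0.90 each). The erythroid median was 0.0078 without centring and 0.016 with centring on Gapdh spots, each with 6 above and 3 below 0. Of all 12588 genes 10747 and 10748 lay above 0 there.

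The sign of 5 of the 10 members rested on the centring. Control spots for Gapdh had medians of -0.44, -0.49 and -0.06 in mutants 3, 5 and 6, relative to the array medians. In mutants 1, 4 and 7 their medians were -0.05, -0.30 and -0.23. Centred on these medians of the Gapdh spots, the median of all probes lay at 0.26 and that of the members at 0.22. Stmn2, Map2, Map1b, Gap43 and Nefl turned positive, with Map2 at 0.069. The members' median minus that of all probes was -0.050 with Gapdh centring and -0.075 with median centring. Stmn1 at -0.044 and Mapt at 0.52 kept their sign.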

How the data were processed

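The values are the log2 ratios of 2 dye channels deposited by the authors for 6 two-colour arrays. Trizol was used for the RNA, per the labels' protocols. The sources used here name no scanner software, background correction or normalization, and no scale or direction of the ratios. The direction was taken as Cy5 over Cy3, because the Mest probe changes sign with the dye labels, so the lower Mest in mutants is part of that reading. Array medians of the deposited values were 0.26, 0.76, 0.19, -0.004, -0.58 and 0.28 for mutants 3, 5, 6, 1, 4 and 7, so the ratios were not centred. No spot intensity was used, so dim or saturated spots are not known and loess could not be run.

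The 590 values at the ceiling of 16.61 were set to missing, and 232 Gapdh control spots were not tested. An array had values for 75.4% to 89.9% of probes, and the number of arrays limits the precision. Ratios were turned to mutant over wild type, centred on the array median and analysed in R 4.3.3 by limma 3.58.1 (lmFit, eBayes), with terms for genotype and dye and the shared wild type as a random block (correlation 0.25). P-values were adjusted by Benjamini-Hochberg over 17476 probes, or 12588 genes for lists. Mutants are separate embryos.

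Names came from the platform's annotation, which is old, and list genes were matched through Entrez identifiers to the gene table of GRCm38.p6 (16184 of 17003 annotated probes matched). The position of each probe in its transcripts was not determined. The members and lists were chosen with earlier results of these data known. Every member and Mest are named, and up to 4 genes with the smallest p of each other list. Alternatives changed the centring, scaling, filters, block, dye term, missing values, moderation, the threshold, 1 value per gene, and arrays, wild types or dye orientations left out.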

Additional observations from a re-analysis of the deposited data

Results flagged for a closer look

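Stmn3 in mutant 7, at -1.63, lay apart from the other 5 arrays. Its gap to the nearest value, -0.32 in mutant 1, was 0.645 of the whole range, above Dixon's 95% critical value for 6 samples. Chance gives about 1 such value in 20 groups, and 13 were examined, the 10 genes, Mest and the mean and median of the members. Stmn2 had a similar value on the same array, -1.67, but with 5 arrays and a gap of 0.439 of the range, under the critical value for 5 samples. The median and mean of the members, also lowest in mutant 7, had gaps of 0.471 and 0.495 of the range, under the value for 6.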

How the results depend on the processing

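The number of members past the adjusted threshold was 0 under all 24 alternatives, leave-one-out fits included, and with a threshold of 0.10. No other probe passed under any of them, not even that of Mest. The count of 0 is therefore not particular to the members. At an unadjusted p under 0.05 in limma the number of members was 0 or 1. The 1 was Map2 without the dye term (-0.19), where 5.90% of all probes lay there. It was Nefm centred on Gapdh spots (0.37, with 15.8% of all probes) and Stmn1 on the Cy5 arrays alone (-0.56, with 8.16%). Of 238 member values under alternatives 25 turned their sign, none of them called, and 213 did not. Many of the 213 could not turn. The threshold of 0.10, robust moderation and no filter left every member's fitted ratio as it was. For members with values on all 6 arrays, so did leaving out the block or the dye term, testing only probes with all 6 values, and 1 value per gene. Without centring, which leaves the median of all probes at 0.26, Stmn2, Map2, Map1b, Gap43 and Nefl lay at 0.13, 0.061, 0.24, 0.23 and 0.12, and the members' median at 0.18. Centred on Gapdh spots the same 5 genes lay at 0.046, 0.069, 0.25, 0.23 and 0.20, and the members' median and mean at 0.22 and 0.19. Leaving out 1 mutant gave members' medians from -0.094 to 0.030 and means from -0.14 to 0.032. Map1b turned to 0.031 without mutant 3, Dcx to -0.022 without mutant 4 and -0.037 without mutant 5, and Gap43 to 0.048 without mutant 6. Stmn2 and Map1b turned to 0.28 and 0.089 without mutant 7, and their lowest values were -0.55 without mutant 1 and -0.067 without mutant 4. Dcx lay at -0.028 without wild type 2 and -0.10 without wild type 8, and Stmn2, Map1b and Gap43 at 0.47, 0.13 and 0.11 without wild type 9. On the 3 arrays with mutant RNA in Cy5, Stmn2, Stmn3, Nefl and Nefm lay at 0.32, 0.12, 0.13 and -0.032. The changes of centring also moved the median of all probes. The cause of these sign changes was not tested. With both arrays of a wild type left out the block correlation could not be estimated, and that of all arrays was used. Each array value already pairs a mutant with a wild type in its ratio. No further pairing was used, because mutant numbers differ between arrays.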
